A study of Mus musculus with 12 samples.

Results

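The response of Mac-Ern1KO peritoneal macrophages to antibody-coated platelets was read from the 6 libraries of the series that carry this genotype label, of 12 in all. Of these, 3 were labelled R300 and 3 were labelled blank, and every gene tested is described. Both groups were cells of male mice aged 8 weeks, taken 3 days after 3% Brewer thioglycolate was put into the peritoneum, an irritant that draws leukocytes into the peritoneum, so that the blank cells too were elicited cells. The R300 cells had been in contact for 2 h with platelets opsonised with R300, an antibody to the platelet surface protein CD42. The treatment label of the blank cells reads Con and does not say whether they received uncoated platelets, so antibody, platelets and time in culture cannot be told apart. The other 6 libraries, 3 R300 and 3 blank, carried the floxed allele without deletion (Ern1fl/fl) and are called WT. The Mac-Ern1KO libraries are called KO. The labels name neither the Cre driver nor the floxed exon, and do not say whether animals were pooled. Expression is given as CPM, a count scaled to library size with TMM normalisation, and a gene was called at a Benjamini-Hochberg adjusted p under 0.05 in edgeR's quasi-likelihood test.

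Ern1 encodes IRE1α, a kinase and endoribonuclease of the endoplasmic reticulum that splices Xbp1 mRNA and degrades other mRNAs when unfolded proteins accumulate. In immune thrombocytopenia, macrophages bind antibody-coated platelets through Fcγ receptors, engulf them and digest them in lysosomes. Ern1 (chr11:106394650-106487852 of GRCm38) read 150, 155 and 116 CPM in KO blank 1 to 3, and 235, 225 and 174 CPM in KO R300 1 to 3. The groups did not overlap, but the 1.51-fold difference (log2 0.59, SE 0.18) was not called (adjusted p = 0.244 in edgeR). Ern1 was called with the same size in a fit with a term for libraries without Xist, described next (adjusted p = 0.0016), and in the libraries with Xist alone (0.0241). A count over the whole gene does not show a missing exon, and so cannot serve as a check of the deletion or of the labels.

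The 6 libraries held 28203421 to 44273655 counts. The macrophage markers Csf1r (1496 to 2270 CPM), Lyz2 (6058 to 7317 CPM) and Adgre1 (575 to 706 CPM) were high in all 6. Xist, the X-inactivation transcript of female cells, was at 464 to 590 CPM in KO blank 1 and 2 and KO R300 1 and 2, and at 0 in KO blank 3 and KO R300 3, although the labels give male mice. The sum of Y-linked transcripts was 42.6 to 71.6 CPM in the first 4 and 205 and 223 CPM in KO blank 3 and KO R300 3. KO blank 3 was also the lowest library in 9 of 13 tested resident peritoneal macrophage genes and KO R300 3 in 3. Of the 13, 0 were called with R300. Prg4, for example, was at 248, 121 and 22.5 CPM in blank cells and at 245, 269 and 29.3 CPM with R300. Differences between libraries with and without Xist thus cannot be told apart from differences in these markers. KO R300 1 and KO R300 2 resembled each other more than any other pair within a KO group did. Their median chi-square per gene was 1.53, against 6.22 to 10.1 for the other pairs and 0.455 from sampling alone. They were kept as separate libraries, because they differed by more than sampling, but n = 3 may then count fewer than 3 independent samples.

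Of 16546 genes tested, 138 were called (0.834% of those tested), 115 higher with R300 (0.695%) and 23 lower (0.139%). With scaling to library totals in place of TMM, 86 were higher and 32 lower. The called rises reached further than the called falls. Among the 115, 76 were at least 2-fold higher, 32 at least 4-fold and 12 at least 8-fold, while 9 of the 23 were at or under 0.5 of the blank level. The median fold was 2.49 for the called rises and 0.531 for the called falls, and the median log2 fold change of all genes was -0.0036. The count of calls depended on single libraries. It was 45 without KO R300 1, 45 without KO R300 2, 59 without KO blank 1, 86 without KO blank 3, 81 without WT R300 1 and 85 without WT R300 3, while 42 of the 138 genes were called without any 1 of the 12 libraries. A further 427 of the 503 genes with a fitted fold of at least 2 were not called. Of 350 genes with a fitted fold of at most 0.5, 341 were not called. In simulated counts, given below, falls were recovered less often than rises. Whether this has a part in the counts of rises and falls here was not tested.

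Among the rises were the NR4A nuclear receptors and other genes known to answer cyclic AMP, and genes for secreted or surface proteins of blood vessel growth, clotting and matrix. The NR4A receptors (NUR77, NURR1 and NOR1, encoded by Nr4a1, Nr4a2 and Nr4a3) are transcription factors induced within minutes to hours of a stimulus. Cyclic AMP activates protein kinase A, which phosphorylates CREB at cAMP response elements (CRE). The promoters of all 3 NR4A genes are shown because the 3 genes rose together, and they come from RefSeq on GRCm38.p6. Each runs from 250 bases before to 50 bases after the start, 5′ to 3′, and capitals mark every TGACG on either strand (CGTCA on the other), the core of a CRE.
Nr4a1 (chr15:101266596-101266895, plus strand): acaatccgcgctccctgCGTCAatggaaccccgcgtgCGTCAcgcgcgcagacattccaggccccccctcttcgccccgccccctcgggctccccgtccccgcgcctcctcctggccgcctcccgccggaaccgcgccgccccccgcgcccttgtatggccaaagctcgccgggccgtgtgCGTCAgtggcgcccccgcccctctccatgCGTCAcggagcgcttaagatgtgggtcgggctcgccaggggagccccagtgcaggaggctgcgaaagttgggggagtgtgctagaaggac
Nr4a2 (chr2:57123954-57124253, minus strand): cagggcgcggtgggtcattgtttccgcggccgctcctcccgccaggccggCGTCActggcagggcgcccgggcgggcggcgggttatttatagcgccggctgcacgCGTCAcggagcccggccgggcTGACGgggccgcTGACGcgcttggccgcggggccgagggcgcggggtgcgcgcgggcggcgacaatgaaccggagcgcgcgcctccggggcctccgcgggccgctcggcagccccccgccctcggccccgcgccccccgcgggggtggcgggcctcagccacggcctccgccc
Nr4a3 (chr4:48045055-48045354, plus strand): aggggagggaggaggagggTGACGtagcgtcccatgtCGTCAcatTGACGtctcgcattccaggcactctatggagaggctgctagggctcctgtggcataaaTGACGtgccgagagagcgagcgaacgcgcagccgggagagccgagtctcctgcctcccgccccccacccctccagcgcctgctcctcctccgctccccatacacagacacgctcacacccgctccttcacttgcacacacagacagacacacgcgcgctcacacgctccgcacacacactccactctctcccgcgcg
Each of these 300 bases held 4 TGACG cores, and no whole CRE (TGACGTCA) and no NR4A element (AAAGGTCA) on either strand. Of 13955 promoters of tested genes, 68 (0.487%) held at least 4 TGACG cores. Of the 102 promoters of called rises 4 did (3.92%), these 3 among them, which were picked because their genes rose. The promoter of Pde4d, another called gene of the cAMP and CREB list below, held no TGACG core and no whole CRE. At least 1 TGACG core was found in 35.3% of the 102 promoters of called rises, 23.8% of the 21 promoters of called falls and 29.6% of all. The whole CRE, which contains the core, was found in 1.96%, 4.76% and 2.82%. Promoters were at hand for 79 of the 115 rises, 18 of the 23 falls and 66.3% of all tested genes. These matches are descriptions of letters and not evidence of binding.

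Mir132, the gene of a microRNA known as a CREB target, was also called, and its mature products are shown because Mir132 and its neighbour Mir212 share a seed. Capitals mark bases 2 to 8, the seed that pairs with target mRNAs.
mmu-miR-132-3p: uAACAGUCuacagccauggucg
mmu-miR-212-3p: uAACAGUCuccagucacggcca
mmu-miR-132-5p: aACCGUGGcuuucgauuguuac
mmu-miR-212-5p: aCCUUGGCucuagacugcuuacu
The 3p products share the seed AACAGUC, and the 5p products do not share one. Mir132 lies at chr11:75173682-75173747 and Mir212 at chr11:75173388-75173478 of GRCm38, both on the plus strand. Reads there in a poly(A) library come from a longer transcript and do not measure the mature microRNA.

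All 3 NR4A genes rose with R300. Nr4a2 was at 3.83, 5.18 and 6.58 CPM in KO blank 1 to 3 and at 75.5, 68.9 and 72.8 CPM in KO R300 1 to 3. Every R300 library was above 10 times every blank library, and the R300 libraries lay close together (fitted fold 13.9, log2 3.80, SE 0.22, n = 3, adjusted p = 4.25e-05 in edgeR). Nr4a1 was at 25.4, 53.3 and 60.3 CPM in blank cells and at 305, 271 and 223 CPM with R300, 5.75-fold higher (log2 2.52, SE 0.37, adjusted p = 0.0103). Leaving out KO R300 1 ended its call (adjusted p = 0.0528). Nr4a3 rose from 14.5, 25 and 13.8 CPM to 73.4, 62.3 and 60.8 CPM, 3.68-fold (log2 1.88, SE 0.25, adjusted p = 0.00607). With R300 Nr4a1 thus had the most counts of the 3 in every library, and Nr4a2 the lowest blank counts, but these values are not corrected for transcript length.

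Of 22 tested genes on a list of cAMP and CREB targets, 6 were called higher and 0 lower, and 20 had a fold above 1 (49.3% of all genes did). The median log2 fold change of the list was 1.24. The 6 were the 3 NR4A genes, Crem, Pde4d and Mir132. Crem, whose short products repress CREB targets, was at 7.45, 5.31 and 5.57 CPM in blank cells and at 107, 110 and 47.6 CPM with R300. The R300 libraries with Xist thus held more than double the level of the one without, and all 3 lay far above the blanks (fitted fold 14.5, log2 3.86, SE 0.37, adjusted p = 0.0008 in edgeR). Pde4d, a phosphodiesterase that breaks down cAMP, went from 3.80, 3.10 and 2.40 CPM to 29.3, 29.8 and 12.7 CPM, 7.72-fold higher (log2 2.95, SE 0.39, adjusted p = 0.00515). Mir132 went from 0.150, 0.0462 and 0.164 CPM to 1.28, 1.38 and 0.858 CPM (fitted fold 9.71, adjusted p = 0.00838), which is a few counts per library in blank cells.

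Other genes of the list were higher in some R300 libraries but were not called. Sik1, a kinase that restrains CREB coactivators, was at 14, 21.9 and 38.4 CPM and then at 56.4, 53.1 and 114 CPM (fitted fold 3.00, adjusted p = 0.264). Its highest library was KO R300 3, the opposite of Crem. Mir212 was at 0, 0.277 and 0.0546 CPM against 1.83, 1.38 and 1.02 CPM (adjusted p = 0.169). Fos, the classic immediate early gene, read 84.2, 136 and 615 CPM in blank cells and 372, 339 and 498 CPM with R300, so the groups overlapped. Areg, Ppargc1a, Per1 and Pde3b had fitted folds of 2.23 to 4.25 with adjusted p of 0.18 to 0.584.

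The receptors and enzymes that make or carry the cAMP signal had fewer calls. Of 33 tested members, 1 was called higher and 0 lower, and the median log2 fold change was 0.03 (0.24 without KO blank 1). The call was Crtc3, a CREB coactivator, at 43.6, 48.6 and 38.9 CPM in blank cells and 87.3, 85.5 and 65.3 CPM with R300 (1.81-fold, adjusted p = 0.0357 in edgeR). It was lost without any 1 of KO R300 1, KO R300 2, WT R300 1, WT R300 3, the 3 KO blank libraries or WT blank 1 (adjusted p 0.0550 to 0.193). Ptger4, a prostaglandin E2 receptor coupled to cAMP, read 102, 36.5 and 24.6 CPM in blank cells and 15.2, 15.8 and 14.4 CPM with R300 (adjusted p = 0.166). Ptgs2, the inducible cyclooxygenase, was at 33.6, 175 and 21.0 CPM and at 159, 222 and 87.6 CPM, with overlap. Ramp3, a partner of receptors for calcitonin family peptides, was outside this list and went from 3.83, 10.3 and 4.97 CPM to 38.5, 38.5 and 19.0 CPM (5.00-fold, adjusted p = 0.0455). It lost its call without any 1 of KO R300 1 or 2, WT R300 1 or 3, or blank 1 or 3 of either genotype (adjusted p 0.0559 to 0.191).

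**Figure D1:**
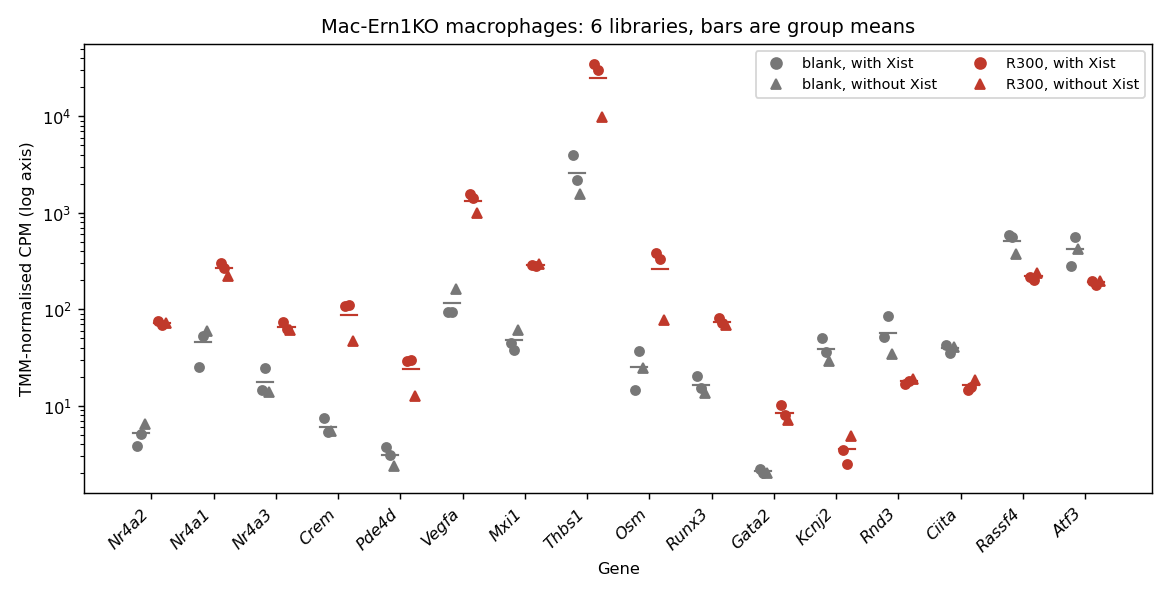
TMM-normalised CPM (log axis) of 16 genes in the 6 KO libraries, blank in grey and R300 in red, circles for libraries with Xist, triangles for libraries without it and bars for the means of 3. Nr4a2, Vegfa, Mxi1 and Kcnj2 separate fully, and the triangle of R300 lies under both circles for Crem, Pde4d, Thbs1 and Osm.

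Other early response genes were called singly. Of 19 AP-1 and EGR factors, 1 was called higher and 1 lower, with a median log2 fold change of -0.02. Fosl2, which encodes the AP-1 subunit FRA2, was at 187, 220 and 108 CPM in blank cells and 722, 691 and 431 CPM with R300 (3.58-fold, log2 1.84, SE 0.31, adjusted p = 0.0203 in edgeR). Atf3, a stress-induced repressor, was at 279, 557 and 428 CPM and fell to 196, 177 and 198 CPM (0.452 of the blank level, adjusted p = 0.0289). The call of Fosl2 was lost without KO R300 1, KO R300 2, KO blank 1 or KO blank 3 (adjusted p 0.0595 to 0.107). That of Atf3 was lost without any KO R300 library, KO blank 2, KO blank 3, WT R300 1 or WT R300 3 (adjusted p 0.0528 to 0.148). Egr1, by contrast, ranged from 41.3 to 384 CPM among the blank libraries and from 77.5 to 332 CPM among the R300 libraries.

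Among 34 further early response genes, 2 were called higher and 0 lower (median log2 0.43). Nfil3, a basic leucine zipper repressor also counted with the circadian clock, rose from 28.2, 26.8 and 15.4 CPM to 132, 117 and 77.6 CPM (4.65-fold, log2 2.22, SE 0.27, adjusted p = 0.00286 in edgeR). It was the 1 gene called among 18 clock genes. Cdkn1a, the cell cycle inhibitor p21, was at 185, 269 and 152 CPM and then 480, 428 and 338 CPM (2.06-fold, adjusted p = 0.0430). Without any 1 of KO R300 1, KO R300 2, KO blank 1, KO blank 3 or any of the 6 WT libraries, Cdkn1a was not called (adjusted p 0.0524 to 0.203). Of 19 MAP kinase phosphatases and feedback inhibitors, 0 were called. Errfi1, an inhibitor of EGF receptor signalling, came closest, at 26.6, 54.9 and 18.6 CPM against 120, 144 and 87.7 CPM (adjusted p = 0.0521).

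Vegfa, the main growth factor of blood vessels, was at 94.2, 94.0 and 162 CPM in blank cells and at 1554, 1433 and 991 CPM with R300. The lowest R300 library was thus above 6 times the highest blank library (fitted fold 11.4, log2 3.51, SE 0.33, n = 3, adjusted p = 0.000719 in edgeR). Vegfa is a target of hypoxia-inducible factors, and 4 of 22 tested hypoxia targets were called higher and 0 lower, with a median log2 fold change of 0.10 (0.30 without KO blank 2). Mxi1, which encodes an antagonist of MYC at shared partners, rose from 44.7, 37.9 and 61.0 CPM to 289, 281 and 293 CPM (6.01-fold, log2 2.59, SE 0.16, adjusted p = 4.25e-05). Slc2a1, the glucose transporter GLUT1, rose from 122, 135 and 137 CPM to 273, 254 and 230 CPM (1.92-fold, adjusted p = 0.000999). Ddit4, an inhibitor of mTORC1, was at 5.62, 9.52 and 5.71 CPM and then 36.0, 40.5 and 15.6 CPM (4.41-fold, adjusted p = 0.0474), and its call was lost without any 1 of 10 libraries, those other than KO R300 3 and WT R300 2 (adjusted p 0.0627 to 0.214).

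The rest of the hypoxia list and the glycolytic enzymes had no further calls. Slc16a3, a lactate exporter, had a fitted fold of 2.58 (adjusted p = 0.0721 in edgeR). Ankrd37, Pdk1 and Bnip3, other common hypoxia targets, had fitted folds of 0.783, 0.791 and 1.00. Of 19 glycolysis genes 0 were called, and their log2 fold changes ran from -0.38 to 0.45. Ldha was at 558, 853 and 775 CPM in blank cells and at 750, 749 and 890 CPM with R300.

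With R300, Thbs1 was by far the most abundant of the called genes described here. It encodes thrombospondin 1, an adhesive glycoprotein stored in platelet alpha granules and also made by macrophages. Its level was 3969, 2187 and 1579 CPM in blank cells and 34492, 30485 and 9859 CPM with R300. At these TMM-normalised levels it made up 0.158% to 0.397% of the scaled counts of a blank library. In KO R300 1, 2 and 3 it made up 3.45%, 3.05% and 0.986%. The fitted fold was 9.67 (log2 3.27, SE 0.56, adjusted p = 0.0236 in edgeR). The call was lost on leaving out KO R300 1, KO R300 2, KO blank 2 or KO blank 3 (adjusted p 0.0879 to 0.105). None of the other 23 tested genes for thrombospondins, integrins and matrix was called.

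Platelets carry RNA, so platelet transcripts were read beside these genes. In bulk RNA, fewer cells of a type and less RNA per cell cannot be told apart. Of 12 tested platelet and megakaryocyte genes 0 were called, and their summed level was 76.2 to 125 CPM in blank cells and 82.6 to 158 CPM with R300. Pf4, an abundant platelet chemokine that macrophages also express, was at 94.9, 92.8 and 53.0 CPM and at 114, 113 and 59.4 CPM. It made up most of that sum. Gp1ba, which encodes the CD42b chain that carries the von Willebrand factor site, was at 1.17 to 2.51 CPM in blank cells and 1.41 to 2.13 CPM with R300. The levels of the others went both ways. Clec1b, the podoplanin receptor of platelets, was at 0.957, 0.208 and 0.491 CPM and at 1.38, 2.12 and 0.985 CPM (2.73-fold, adjusted p = 0.419 in edgeR), and Rab27b, a GTPase of granule secretion, had a fitted fold of 2.01 (adjusted p = 0.539), both with groups that did not overlap. Tubb1 of the same list had groups apart the other way, at 0.359, 0.323 and 0.328 CPM and at 0.310, 0.212 and 0.318 CPM (0.837 of the blank level). Groups did not overlap for 12.3% of all genes tested. Ppbp, a platelet chemokine, had a fitted fold of 2.34, and Treml1 and P2ry12, platelet surface receptors, of 0.593 and 0.574, with groups that overlapped. The platelet genes Gp9, Gp5 and Gp6 were too low to be tested. Whether platelet RNA had a part in the Thbs1 difference was not tested.

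Genes of clotting control, matrix breakdown and cell contact were also among the rises. Of 34 tested genes of the plasminogen system and metalloproteinases, 4 were called higher and 0 lower, with a median log2 fold change of 0.13. Mmp19, a secreted metalloproteinase, rose from 116, 198 and 152 CPM to 571, 588 and 565 CPM (3.70-fold, log2 1.89, SE 0.22, adjusted p = 0.00185 in edgeR). Up to 28.3% of the exonic bases of Mmp19 overlap Tmem198b and Gm47093 on the opposite strand, and the libraries were not strand-marked. Thbd, thrombomodulin, the thrombin receptor that turns clotting down, went from 25.7, 19.5 and 23.3 CPM to 129, 125 and 57.2 CPM (4.54-fold, adjusted p = 0.0144). Procr, the receptor for protein C, the protease that thrombomodulin helps to activate, went from 19.9, 23.4 and 21.6 CPM to 45.1, 42.3 and 29.8 CPM (1.80-fold, adjusted p = 0.0455).

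Adam8, a membrane metalloproteinase of leukocytes, read 327, 558 and 600 CPM and then 1272, 1176 and 1224 CPM (2.47-fold, adjusted p = 0.0202 in edgeR). Tgm2, the crosslinking enzyme transglutaminase 2, read 547, 681 and 467 CPM and then 1576, 1475 and 1005 CPM (2.39-fold, adjusted p = 0.0173), and 21.8% of its exonic bases overlap another gene. Lrrc32, which encodes GARP, the cell surface anchor of latent TGF-β, rose from 7.74, 11.2 and 5.13 CPM to 92.0, 78.5 and 31.4 CPM (8.36-fold, log2 3.06, SE 0.40, adjusted p = 0.00449). Lrrc32 and Mmp19 were called without any 1 library. Adam8 was not called without KO R300 1 or KO R300 2 (adjusted p 0.0778 and 0.104), nor Tgm2 without these, KO blank 1 or KO blank 3 (0.0779 to 0.103). Thbd was not called without any KO blank library, KO R300 1 or KO R300 2 (adjusted p 0.0638 to 0.0716), and Procr not without these 5, WT R300 1, WT R300 3 or any WT blank library (adjusted p 0.0679 to 0.23).

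Osm was the 1 cytokine or growth factor called among 40 tested, and the median log2 fold change of the list was 0.01 (0.46 without KO blank 2). Osm encodes oncostatin M, a cytokine of the interleukin-6 family made by activated macrophages. It was at 14.7, 36.9 and 24.9 CPM in blank cells and at 381, 336 and 77.1 CPM with R300, so the groups did not overlap but KO R300 3 was far below the other R300 libraries (fitted fold 10.4, log2 3.38, SE 0.63, adjusted p = 0.0394 in edgeR). Osm lost its call without any 1 of 9 libraries, those other than KO R300 3, WT blank 1 and WT R300 2 (adjusted p 0.0578 to 0.161). Clcf1, another member of that family, went from 16.2, 16.5 and 15.1 CPM to 32.8, 38.3 and 30.5 CPM (2.13-fold, adjusted p = 0.0073, but 0.0545 without KO R300 2). It is on no list and was chosen after its values were seen.

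The classic inflammatory cytokines were not called. Il1b was at 79.5, 276 and 43.2 CPM in blank cells and at 890, 800 and 224 CPM with R300 (adjusted p = 0.350 in edgeR). KO blank 2 was thus above KO R300 3. Tnf was at 113, 434 and 106 CPM in blank cells and at 53.7, 53.5 and 62.1 CPM with R300 (0.259 of the blank level, adjusted p = 0.112). All R300 libraries were below all blank libraries for Tnf, and the blank libraries themselves spread 4-fold.

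KO blank 2 held the highest values of many inflammatory genes. It was the highest of the 6 libraries in 19 of 23 NF-κB subunits and targets, 14 of 21 chemokines and 19 of 32 genes of the ATF4 program. No gene was called among the NF-κB genes or chemokines. The NF-κB list had a median log2 fold change of -0.37 with all libraries and 0.0039 without KO blank 2. Cxcl2, a neutrophil attractant, shows the pattern with 316, 2048 and 618 CPM in blank cells and 774, 678 and 731 CPM with R300. Icam1, an adhesion molecule, was lower in all 3 R300 libraries, at 87.1, 82.6 and 115 CPM against 186, 325 and 167 CPM, and was not called (adjusted p = 0.115).

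Of 33 interferon-stimulated genes 0 were called, though 29 had a fold below 1 and the median log2 fold change was -0.36. KO R300 1 and 2 were the lowest pair of libraries in 24 of the 33. In the libraries with Xist alone the median was -0.89. Mx1, an antiviral GTPase, was at 17.6, 58.7 and 61.6 CPM in blank cells, at 12.4 and 15.3 CPM in KO R300 1 and 2 and at 57.1 CPM in KO R300 3. Irf1, an interferon-induced transcription factor, did separate, at 47.8, 126 and 66.9 CPM against 29.7, 28.8 and 37.3 CPM (adjusted p = 0.114).

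Receptors for microbes and migration signals were called 1 by 1. Of 23 Toll-like receptors and adaptors Tlr5, the flagellin receptor, was called higher, from 0.837, 0.508 and 0.546 CPM to 7.04, 7.36 and 2.99 CPM (9.19-fold, adjusted p = 0.0357 in edgeR). Clec7a, the β-glucan receptor dectin-1, was called among 20 C-type lectins, at 534, 394 and 588 CPM in blank cells and 1388, 1365 and 952 CPM with R300 (2.45-fold, adjusted p = 0.0112). Ccr7, the receptor that guides cells to lymph nodes, was called among 22 chemoattractant receptors, at 11.2, 18.7 and 10.8 CPM and 46.1, 42.0 and 27.0 CPM (2.83-fold, adjusted p = 0.0490).
All 3 of these calls rest on several libraries. Tlr5 was lost without any KO blank library, KO R300 1, KO R300 2, WT R300 1, WT R300 3 or WT blank 2 (adjusted p 0.0572 to 0.152). Clec7a was lost without KO R300 1, KO R300 2 or KO blank 1 (adjusted p 0.0533 to 0.0695). Ccr7 was lost without KO R300 1 or 2, WT R300 1 or 3, or blank 1 or 3 of either genotype (adjusted p 0.0603 to 0.227). Cd14, the endotoxin co-receptor, was at 797, 1277 and 524 CPM and at 3465, 3272 and 1547 CPM, above every blank library but not called (adjusted p = 0.166).

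Lists of the machinery of uptake and digestion held no calls. With 0.834% of all tested genes called, a list of such a size would often hold none. Of 35 genes for Fcγ receptors and their proximal signalling, 30 for clearance of dying cells, 51 for lysosomal enzymes and membrane proteins, 39 for the lysosomal proton pump and its TFEB regulators, and 33 for autophagy, 0 were called. Their median log2 fold changes were -0.11, -0.01, -0.01, -0.04 and -0.04. Fcgr3, an activating Fcγ receptor, was at 271, 217 and 283 CPM in blank cells and at 434, 446 and 325 CPM with R300 (1.56-fold, adjusted p = 0.0864 in edgeR, and 0.0305 without KO R300 3 and 0.00845 in DESeq2). The Src family kinase Fgr was at 336, 318 and 266 CPM and at 232, 220 and 226 CPM (adjusted p = 0.169). Tfec, a relative of TFEB, was at 25.3, 23.3 and 14.5 CPM and at 11.7, 10.7 and 9.95 CPM (adjusted p = 0.0592, and 0.0116 without KO blank 3 and 0.00163 in DESeq2).

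Lists of genes that IRE1α feeds into held no calls either. Over all genes tested 0.834% were called, so 0 calls in lists of this size says little about them. Of 37 XBP1 and ATF6 targets 0 were called, with a median log2 fold change of 0.04, and of 15 reported substrates of IRE1-dependent decay 0 were called, with a median of 0.01. Xbp1 itself was at 123, 110 and 99.4 CPM in blank cells and at 160, 151 and 106 CPM with R300 (adjusted p = 0.566 in edgeR). Nr1d1, the circadian repressor named in the title of the series as a decay substrate, was at 11.2, 11.2 and 8.60 CPM and at 11.4, 11.2 and 8.55 CPM (fitted fold 1.01, log2 0.01, SE 0.20, adjusted p = 1.00). The sign of a change this small turned with the scaling, as it was -0.05 with library totals alone. In WT the fitted fold of Nr1d1 was 0.679, and the difference of the responses, KO minus WT, was 0.57 on the log2 scale (SE 0.29, unadjusted p = 0.0739, adjusted p = 1.00).

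The ATF4 program, the amino acid and stress response downstream of other kinases, had 1 call higher (Ddit4) and 1 lower (Atf3) among 32 tested genes, with 24 below the blank level and a median log2 fold change of -0.305. Chac1, a glutathione-degrading enzyme, was at 6.25, 17.2 and 3.55 CPM in blank cells and at 1.48, 1.70 and 2.51 CPM with R300 (adjusted p = 0.191 in edgeR). All R300 libraries were below all blanks, with KO blank 2 the highest. Both calls, as given above, rested on several single libraries.

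Genes of the NRF2, heme and iron list included 2 calls higher and 0 lower among 31 (median log2 0.19). Gclc, the rate-limiting subunit of glutathione synthesis, was at 190, 180 and 182 CPM in blank cells and at 399, 369 and 284 CPM with R300 (1.91-fold, log2 0.93, SE 0.14, adjusted p = 0.0092 in edgeR). Srxn1, sulfiredoxin, went from 480, 465 and 483 CPM to 960, 890 and 733 CPM (1.81-fold, adjusted p = 0.0160). Blank libraries agreed closely for both. Gclc was lost without KO R300 1 or KO R300 2 (adjusted p 0.0578 and 0.0652) and Srxn1 without those or any KO blank library (adjusted p 0.0579 to 0.103). Of 19 heat shock genes Hsph1, an HSP70 partner, was called, at 38.9, 41.8 and 47.6 CPM against 62.6, 70.7 and 77.1 CPM (1.64-fold, adjusted p = 0.0180, lost without KO R300 2, KO blank 1 or KO blank 2 at 0.0648 to 0.0971).

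**Figure D2:**
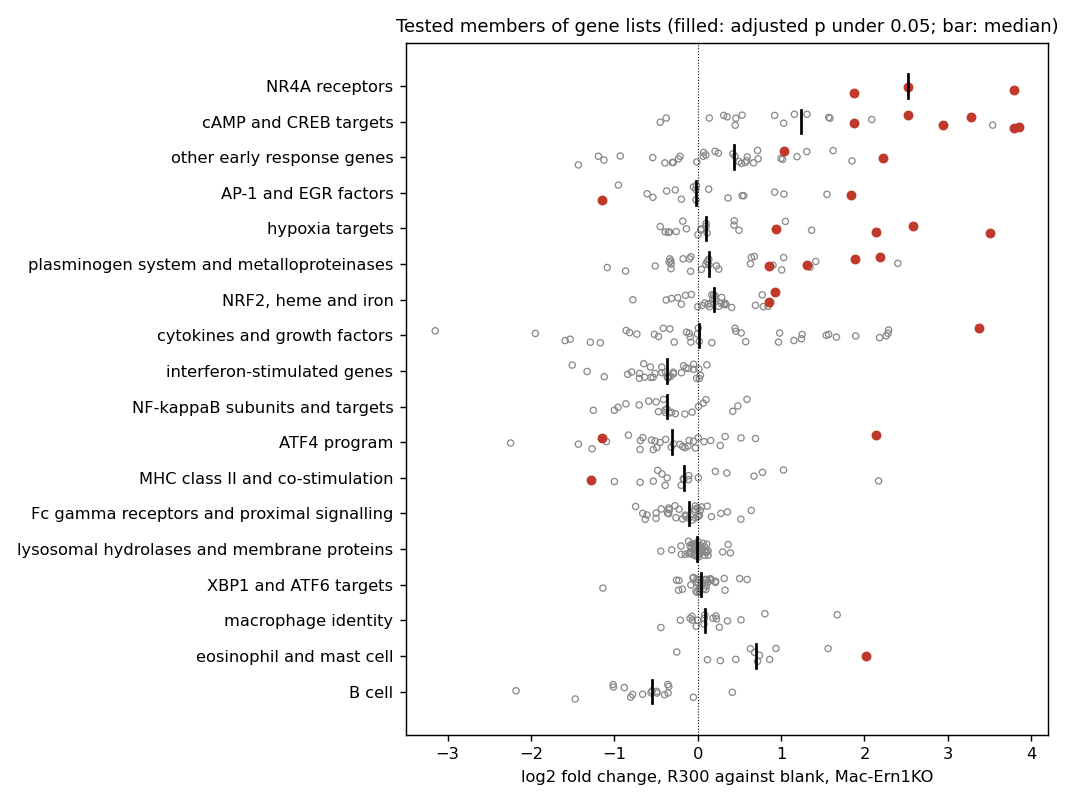
Log2 fold change, R300 against blank in KO, of each tested gene of 18 lists, filled where adjusted p was under 0.05, with the median as a bar. NR4A receptors and cAMP and CREB targets lie to the right with medians of 2.52 and 1.24, and the lysosomal and XBP1 lists lie around 0.

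The rises called without any 1 library included genes on none of the lists above. Runx3, a runt family transcription factor, was at 20.7, 15.2 and 13.6 CPM in blank cells and at 81.2, 72.8 and 69.4 CPM with R300 (4.51-fold, log2 2.17, SE 0.22, adjusted p = 0.000955 in edgeR). Hdac5, a class IIa histone deacetylase, rose from 82.9, 62.9 and 88.2 CPM to 272, 250 and 288 CPM (3.46-fold, adjusted p = 0.000105). Cytip and Cyth1 encode partners, since CYTIP binds cytohesin 1, a regulator of integrin adhesion. Cytip rose from 46.9, 69.1 and 64.4 CPM to 322, 326 and 426 CPM (5.95-fold, adjusted p = 0.00125) and Cyth1 from 159, 112 and 139 CPM to 599, 558 and 427 CPM (3.87-fold, adjusted p = 0.000846).

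Arrdc3, an α-arrestin known to bind β-adrenergic receptors, rose from 24.1, 17.3 and 15.2 CPM to 92.9, 98.4 and 52.8 CPM (4.32-fold, adjusted p = 0.00185 in edgeR). Gab1, a docking protein of growth factor receptors, rose from 47.4, 28.4 and 29.6 CPM to 138, 121 and 119 CPM (3.59-fold, adjusted p = 0.00185). Havcr2, the inhibitory receptor TIM-3, rose from 14.6, 16.2 and 22.8 CPM to 45, 45.2 and 48.0 CPM (2.58-fold, adjusted p = 0.00515). Hdac5, Cyth1, Gab1 and Havcr2 were chosen after their values were seen.

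Some of these rises were in genes of enzymes. Dgat1, which makes triglycerides, was at 15.2, 20.5 and 17.3 CPM in blank cells and at 71.6, 66.0 and 86.6 CPM with R300 (4.22-fold, log2 2.08, SE 0.14, adjusted p = 6.19e-05 in edgeR). Got1, the cytosolic aspartate aminotransferase, rose from 42.5, 56.1 and 54.0 CPM to 201, 183 and 148 CPM (3.48-fold, adjusted p = 0.000291). Gcsh, a subunit of the glycine cleavage system, rose 3.32-fold (adjusted p = 0.000759) and Auh, an enzyme of leucine breakdown, 2.12-fold (adjusted p = 0.00138). B3gnt5, which starts a branch of glycosphingolipids, rose from 5.02, 6.40 and 7.81 CPM to 62.3, 61.3 and 40.0 CPM (8.50-fold, adjusted p = 0.00285). Dgat1, Got1, Gcsh and Auh were chosen after their values were seen. Cbarp, a regulator of voltage-gated calcium channels, was at 1.78 to 2.54 CPM and then at 13.6, 13.5 and 21.9 CPM (7.80-fold, adjusted p = 0.000984), with KO R300 3 the highest.

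The falls were fewer than the rises, and Kcnj2 had the lowest fold of the 23. Kcnj2 (chr11:111066164-111076821) encodes Kir2.1, the inward rectifier channel that sets the resting potential of macrophages. It was at 50.7, 36.2 and 29.0 CPM in blank cells and at 3.48, 2.48 and 4.89 CPM with R300, so the lowest blank library was above 5 times the highest R300 library (0.0940 of the blank level, log2 -3.41, SE 0.38, adjusted p = 0.00164 in edgeR). Kcnj2 was called without any 1 library, the 1 fall of which that holds. It was also the 1 gene called among 19 tested potassium channel genes, whose median log2 fold change was -0.06 (0.02 without KO blank 1).

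Ciita, the master activator of MHC class II genes, fell from 42.9, 35.2 and 40.4 CPM to 14.7, 15.5 and 18.7 CPM (0.413 of the blank level, log2 -1.28, SE 0.20, adjusted p = 0.0160 in edgeR). It was the 1 call among 20 genes of MHC class II and co-stimulation, whose median log2 fold change was -0.17. Cd80 and Cd86, co-stimulatory ligands, were on the other side, with Cd80 at 14.4, 38.4 and 12.3 CPM and then 126, 113 and 54.5 CPM (adjusted p = 0.0809) and Cd86 2.04-fold (adjusted p = 0.0701). Ciita lost its call without KO R300 1, KO R300 2 or KO blank 1 (adjusted p 0.0679 to 0.107).

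Depp1 had a fold of 0.165, at 0.718, 1.64 and 0.737 CPM in blank cells and at 0.172, 0.0708 and 0.254 CPM with R300 (adjusted p = 0.0455 in edgeR). It lies within Rassf4 on the other strand, but the annotated exons of the 2 genes do not overlap. Its call was lost without any 1 of 11 libraries, all but KO R300 3 (adjusted p 0.0510 to 0.213). Rassf4, a RAS association domain protein, fell from 591, 565 and 372 CPM to 219, 203 and 237 CPM (0.431, adjusted p = 0.0170 in edgeR), and was lost without KO R300 1, KO R300 2, KO blank 1 or KO blank 2 (adjusted p 0.0590 to 0.106). Rnd3, an atypical small GTPase that acts on the actin cytoskeleton, fell from 51.6, 86.3 and 34.9 CPM to 17.1, 18.3 and 18.8 CPM (0.314, adjusted p = 0.0394). It was lost without any KO R300 library, KO blank 1, KO blank 2, WT R300 1, WT R300 3 or WT blank 1 (adjusted p 0.0572 to 0.189). With Cdc42ep3, a CDC42 effector called at adjusted p = 0.0455 and lost without any 1 of 11 libraries, all but WT blank 1 (adjusted p 0.0580 to 0.248), Rnd3 made up the 2 calls among 37 genes of small GTPases and actin. Map3k8, the kinase TPL2 that links Toll-like receptors to ERK, fell from 41.8, 62.0 and 42.5 CPM to 29.0, 26.3 and 22.4 CPM (0.531, adjusted p = 0.0337), and was lost without any KO R300 library, KO blank 1, KO blank 2, WT R300 1, WT R300 3 or WT blank 3 (adjusted p 0.0533 to 0.148).

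Plekho2 and Zc3h12d showed little spread within groups. Plekho2, a pleckstrin homology domain protein, was at 573, 631 and 615 CPM and then at 369, 341 and 394 CPM (0.607, log2 -0.72, SE 0.11, adjusted p = 0.0103 in edgeR). Zc3h12d, of the regnase family of RNA-degrading proteins, was at 11.8, 11.7 and 12.7 CPM and then at 6.52, 6.48 and 6.52 CPM (0.539, adjusted p = 0.00915). Both were lost without KO R300 1 or KO R300 2 (adjusted p 0.0579 to 0.0702).

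Some called genes lie close to each other. Among the 135 called genes with a position, 9 pairs lay within 50 kb of each other or overlapped, and both members went the same way in all 9. Since 115 of the 138 called genes rose, most pairs drawn from them would share a direction, and 3 of the 9 pairs are at 1 locus and 3 overlap. Nufip1, a factor of small nucleolar RNP assembly, and Gpalpp1 lie on opposite strands with 130 bases between them (chr14:76086236-76110760 and chr14:76110891-76137379). Gpalpp1 rose from 75.0, 71.0 and 78.6 CPM to 341, 326 and 209 CPM (3.90-fold), and Nufip1 from 16.6, 25.1 and 23.5 CPM to 89.5, 84.9 and 85.6 CPM (3.98-fold). Nfil3 and Auh lie 37527 bases apart on chromosome 13.

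At the Mir132 locus the host transcript 1700016P03Rik (chr11:75172560-75177633) was at 0.359, 0.231 and 1.17 CPM in blank cells and at 5.38, 5.88 and 5.18 CPM with R300 (adjusted p = 0.0236 in edgeR). Hic1, a transcriptional repressor 3040 bases away on the other strand, was at 6.73, 6.17 and 5.54 CPM and at 15.1, 12.4 and 9.76 CPM (2.02-fold, adjusted p = 0.0476). Of the exonic bases of 1700016P03Rik, 74.3% overlap Ovca2 on the opposite strand, so its counts are uncertain. The call of 1700016P03Rik was lost without KO R300 1, KO R300 2, KO blank 1, KO blank 2 or WT R300 1 (adjusted p 0.0521 to 0.113), and that of Hic1 without any 1 of 10 libraries, those other than KO R300 3 and WT blank 2 (adjusted p 0.0647 to 0.243). These neighbours were looked for after the values were seen, and pairs whose exons overlap can share reads.

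Among the called genes, the change was mostly smaller in the libraries without Xist. The KO groups of all called genes did not overlap, so the direction in each kind of library was fixed beforehand and is no separate evidence. For the called rises the median fold was 2.69 over KO R300 1 and 2 against KO blank 1 and 2, and 2.35 for KO R300 3 against KO blank 3. The fold was smaller without Xist in 84 of 115 rises and 0.5 times as large or less in 10. The called falls had medians of 0.533 and 0.585. Osm was at 13.9-fold and 3.10-fold, while Nr4a3 was at 3.44-fold and 4.40-fold, Mmp19 at 3.69-fold and 3.73-fold, and Cbarp at 6.28-fold and 11.1-fold. The pair without Xist is 1 library against 1 and has no replicate, so this difference was not tested.

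**Figure D3:**
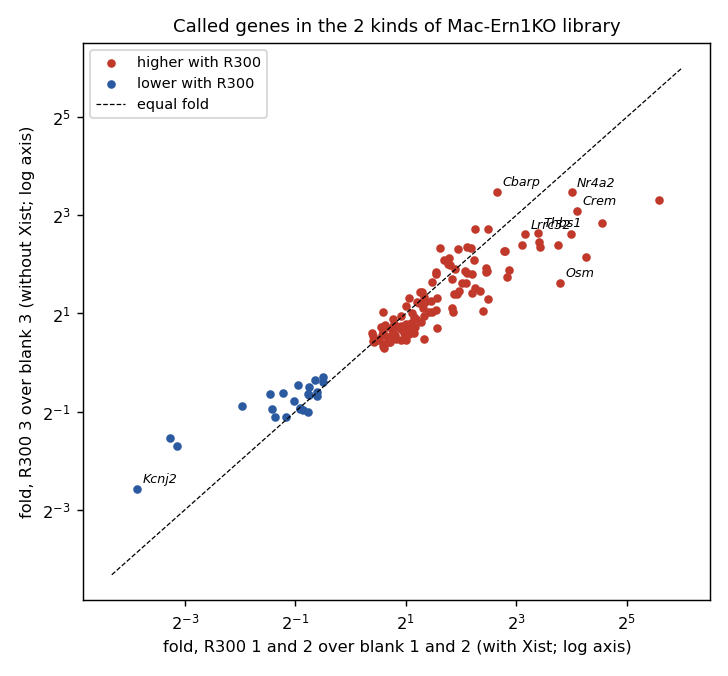
Fold with R300 of the 138 called genes in KO libraries with Xist (horizontal, 2 libraries against 2, log axis) and without Xist (vertical, 1 against 1, log axis), rises in red and falls in blue. Most points lie between the line of equal fold and a fold of 1, with Nr4a2 and Crem high on both axes and Osm lower on the vertical one.

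In the test of the difference from the WT response, no gene was called. That test (KO response minus WT response, in the same edgeR fit) called 0 of 16546 genes, 95 had an unadjusted p under 0.05, and DESeq2 also called 0. In WT, 103 genes were called (0.623% of those tested). Of the 138 genes called in KO, 89 were called in WT, which is 64.5% of the KO calls and 86.4% of the WT calls, all 89 in the same direction. In KO the R300 and blank libraries of all 138 did not overlap, as for 12.3% of all genes tested. All 138 had the same sign in WT and did not overlap there either. The shares of all tested genes with groups apart in WT, or with the same sign in both genotypes, are not given here. The change was larger in KO for 112 of the 138, with a median absolute log2 fold change of 1.26 in KO and 1.11 in WT. These genes were chosen by their call in KO, so this comparison of sizes is a description.

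The WT values of the genes that led the KO response stand beside the difference of the responses. Nr4a2 was 9.96-fold higher in WT (difference of the log2 responses, KO minus WT, 0.48, SE 0.28), Crem 11.6-fold (0.32, SE 0.48), Vegfa 8.91-fold (0.35, SE 0.42) and Mxi1 5.07-fold (0.25, SE 0.21). Kcnj2 was at 0.125 of the WT blank level (-0.41, SE 0.49). Pde4d was 4.39-fold higher in WT against 7.72-fold in KO (unadjusted p of the difference 0.146) and Arrdc3 2.86-fold against 4.32-fold (unadjusted p = 0.0989), with adjusted p of 1.00 for both.

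Nptx1, which encodes a secreted neuronal pentraxin, was the 1 gene called in KO with an unadjusted p of the difference under 0.05. It read 0.0299, 0 and 0.0546 CPM in the KO blank libraries, and with R300 0.828, 0.602 and 0.540 CPM, against 0.111 to 0.208 CPM and 0.381 to 0.909 CPM in WT (difference 2.31 on the log2 scale, SE 0.90, unadjusted p = 0.0257, adjusted p = 1.00 in edgeR). KO blank libraries held only 0 to a few counts, so the fold depends on counting error there. It was named for this value, and its call in KO was lost without KO R300 1, KO R300 2 or KO blank 1 (adjusted p 0.0545 to 0.0694).

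**Figure D4:**
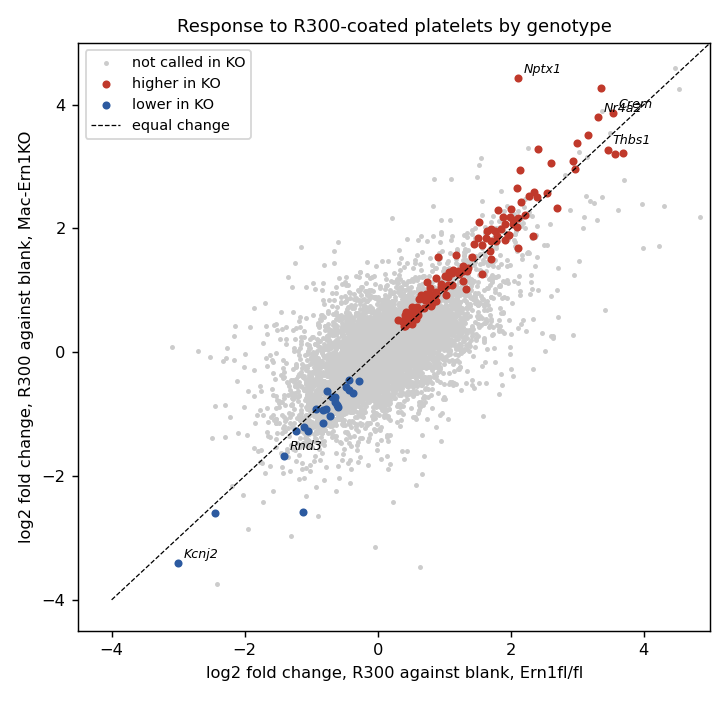
Log2 fold change with R300 of 16546 genes in WT (horizontal) and KO (vertical), genes called in KO in red (115 higher) or blue (23 lower), with a dashed line of equal change. All 138 coloured points lie on the same side of 0 in both genotypes.

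Markers of other cells moved with R300 in part. Gata2, a transcription factor of mast cells and blood progenitors, was at 2.24, 2.03 and 2.02 CPM in KO blank and at 10.3, 8.14 and 7.15 CPM with R300 (4.06-fold, log2 2.02, SE 0.22, adjusted p = 0.00128 in edgeR) and was called without any 1 library. It was the 1 call among 12 tested eosinophil and mast cell genes, 11 of which were above the blank level, with a median log2 fold change of 0.70. Their summed level was 40.0 to 103 CPM in blank cells and 70.0 to 161 CPM with R300, and 10 of the 12 were highest in KO R300 1. The mast cell protease genes Cpa3 and Tpsb2 were at 2.06 to 4.01 and 3.77 to 5.35 CPM in blank cells and at 4.67 to 7.38 and 6.42 to 10.1 CPM with R300. The part of such cells in the Gata2 rise was not tested.

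No gene was called among 18 B cell genes (median log2 -0.555, 17 below the blank level, 14 highest in KO blank 2), 16 mesothelial and fibroblast genes (0.41, 15 highest in KO R300 2), 15 recruited monocyte genes (-0.32) or 11 neutrophil genes (-0.27, but 0.50 without KO blank 2). The summed B cell level was 444 to 642 CPM in KO blank and 392.5 to 434 CPM with R300. The mesothelial sum was 397 to 529 CPM in KO blank, 940 CPM in KO R300 2 and 429 and 410 CPM in the other R300 libraries.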

How the data were processed

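Poly(A) RNA of 12 libraries had been sequenced. Per the labels' protocols, libraries were made after oligo(dT) enrichment with NEBNext Ultra reagents and carry no strand mark. The tools named in the submitters' processing notes are HISAT2, featureCounts 2.0.3, fastp 0.23.4, FastQC 0.12.1 and DESeq2 1.42.0, with mm10. The authors deposited raw counts per gene symbol. Rows without a symbol held 0.0232% to 0.0328% of counts and were left out.

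The counts of all 12 libraries were fitted with edgeR 4.0.16 in R 4.3.3 (TMM, filterByExpr by group, robust quasi-likelihood, 1 mean per group; common biological coefficient of variation 0.267). Contrasts were R300 minus blank in KO and the difference of that response from WT. The labels call the libraries biological replicates, and p-values measure only the spread between them. Exact permutation of 3 against 3 cannot go under 0.1. In counts simulated for the KO contrast with 16236 genes, each fold was given to 50 genes. Of 4-fold and 2-fold rises, 82% and 50% were recovered. Of falls to 0.25 and to 0.5 of the level, 76% and 34% were recovered. The simulated libraries were drawn independently, without a near-alike pair or differences tied to Xist, unlike the data. Positions are from GENCODE M21 on GRCm38, promoters and microRNAs from RefSeq.

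The members and gene lists (37 pathway, 12 marker) were chosen with earlier results of these data known. Named genes are Ern1, Xbp1, Nr1d1, the 25 largest rises and 15 largest falls among called genes with a mean of at least 1 CPM over the KO libraries, non-overlapping groups and an established symbol, every called list member, and the 2 lowest p in a list without calls. Not all are printed, and others are named by their list or as stated. Alternatives were RLE size factors, library totals, no filter, KO libraries only, a replicate block, a term for Xist, libraries with Xist only, near-alike pairs summed, a minimum fold of 2, DESeq2 and each library left out.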

Additional observations from a re-analysis of the deposited data

How the results depend on the processing

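No called gene changed direction in any alternative. The KO groups of all 138 did not overlap, so this was nearly fixed beforehand and is no separate evidence. Of the 138, 42 were called without any 1 library and 22 in every alternative. The count of calls was 137 with RLE size factors, 118 with library totals, 129 without a filter, 43 with the KO libraries only, 450 with a term for libraries without Xist, 290 with the libraries with Xist only, 35 with near-alike R300 pairs summed, 24 for a minimum fold of 2 and 415 with DESeq2. Leaving out 1 library gave 45 to 171 calls. All 138 genes were called with the Xist term and with DESeq2, and 43 with the KO libraries only. Where another cause is not plain from fewer libraries or a stricter test, the cause was not tested. The difference from WT gave 0 calls in every fit, and the KO libraries alone cannot give it.

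Whether the replicate numbers pair the KO samples could not be settled, since KO R300 1 and KO R300 2 were nearly alike. With a block of the replicate numbers in both genotypes 57 genes were called. Correlations of same-numbered blank and R300 libraries were 0.46, 0.03 and 0.72 in KO, and KO blank 1 and KO blank 2 correlated best with another number. In WT they were 0.47, -0.03 and -0.59, and WT blank 3 correlated at 0.69 with WT R300 2. Xist was at 0.0742 CPM in WT blank 3 and 0.0346 CPM in WT R300 2, but at 169 CPM in WT R300 3. By these values the WT numbers do not pair the samples, so the block mismatched WT libraries.

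Nr1d1 had a log2 change of 0.01, and this turned to -0.0542 with library totals, -0.00947 without a filter, -0.0575 with near-alike pairs summed, -0.125 without KO blank 3, -0.0639 and -0.0726 without KO R300 1 or 2, and -0.00046 without WT blank 1. Leaving out 1 library gave -0.125 to 0.118. Of 1078 list medians under alternatives, 29 moved by more than the spread between replicates. Total counts limit what could be seen for genes under about 1 CPM, such as Mir132 and Nptx1.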
